A study of Homo sapiens with 9 samples.

Results

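The genes described here are IL1B, IL8 (now CXCL8), NFKBIA and TNFAIP3, which were chosen by their symbols in the array annotation with their array values already known, 4 genes of the 30968 probes in the deposited table. Each of them had exactly 1 probe, so no probe had to be chosen or averaged. The position of the probes within the genes is not given in the sources used here. HaCaT, an immortalized line of human keratinocytes, was exposed for 1 h to an extremely low frequency electromagnetic field (ELF-EMF) of 50 Hz and 1 mT, and its RNA was set against that of non-exposed HaCaT cells on 2-colour Phalanx Human OneArray slides. Both groups were seeded from the same cells, which had been starved of serum and given it again, and stood in identical incubators. Biological samples A, B and C (n = 3) were each hybridized to 2 arrays carrying the exposed RNA in Cy5 and to 1 dye swap carrying it in Cy3, 9 arrays in all. As a model this is 1 cell line in culture, without the other cells of skin.

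NF-kB is a family of transcription factors that is held in the cytoplasm by IkB proteins and set free when the IKK kinases mark IkB for destruction, for example after interleukin-1 or tumour necrosis factor binds its receptor. Among its target genes are cytokines such as interleukin-1 beta (IL1B) and the neutrophil-attracting chemokine interleukin-8 (IL8). NFKBIA, which encodes IkB-alpha, and TNFAIP3, which encodes the ubiquitin-editing enzyme A20, are targets too, and their products bring the pathway back to rest. Keratinocytes make all of these transcripts when the skin is wounded, infected or irritated.

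The stretches before the transcription starts of the 4 genes are shown because both arms of this loop, the cytokines and the inhibitors, are described as NF-kB targets. The sequences are from RefSeq on GRCh38.p14, where all 4 genes were matched by symbol. They are the 150 bases before the start used in the RefSeq promoter set, at chr2:112836780-112836929 on the minus strand for IL1B, chr4:73740419-73740568 on the plus strand for CXCL8, chr14:35404750-35404899 on the minus strand for NFKBIA, and chr6:137867109-137867258 on the plus strand for TNFAIP3. The genes themselves span chr2:112829751-112836779 (IL1B), chr4:73740569-73743716 (CXCL8), chr14:35401513-35404749 (NFKBIA) and chr6:137866349-137883312 (TNFAIP3), and the TNFAIP3 window lies inside its gene, before a later start. Capitals mark matches, on either strand, to the classical kB decamer or to the Rel consensus decamer.
IL1B: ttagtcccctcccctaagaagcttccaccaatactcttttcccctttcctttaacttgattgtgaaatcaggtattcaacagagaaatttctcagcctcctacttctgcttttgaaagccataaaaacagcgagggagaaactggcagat
CXCL8 (IL8): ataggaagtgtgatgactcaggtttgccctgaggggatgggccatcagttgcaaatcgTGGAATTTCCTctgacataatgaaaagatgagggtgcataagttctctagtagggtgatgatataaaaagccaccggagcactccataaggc
NFKBIA: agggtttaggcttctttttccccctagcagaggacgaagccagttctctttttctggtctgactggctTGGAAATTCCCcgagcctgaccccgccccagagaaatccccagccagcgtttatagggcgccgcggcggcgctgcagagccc
TNFAIP3: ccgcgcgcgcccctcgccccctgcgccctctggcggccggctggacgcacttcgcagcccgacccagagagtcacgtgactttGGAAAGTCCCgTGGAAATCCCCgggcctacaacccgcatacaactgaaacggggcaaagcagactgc

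IL8, NFKBIA and TNFAIP3 each held capitals in this window, and IL1B held none. In IL8 the matches were overlapping Rel decamers between bases 92 and 82 before the start. NFKBIA had overlapping matches to both decamers between bases 82 and 72. TNFAIP3 had a pair of neighbouring sites, 1 from base 67 to 58 and 1 from base 56 to 46. Over 250 bases before the start, a match to either decamer was present in 15.1% of 35116 RefSeq promoters. The search over those 250 bases also covered AP-1 (TGANTCA, in 6.57% of promoters), the TATA box (TATAAA, in 10.7%) and the SP1 motif (GGGCGG, in 42.6%), all on both strands. IL8 had 1 AP-1 and 1 TATA match, NFKBIA had 1 TATA and 1 SP1 match, and TNFAIP3 had 6 SP1 matches, some of them overlapping. None of these 5 motifs matched in the IL1B window, which says only that these letters were not there.

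The deposited value was taken as the log2 of Cy5 over Cy3. Read with base 2, 86.6% to 99.1% of an array's values came out as ratios with 3 decimals (within 0.05 of the last one), and at most 10.3% did with the natural or decimal logarithm. Dye swaps were turned, so that a log2 ratio below 0 means a smaller share of the RNA in exposed than in non-exposed cells. The study mixed equal amounts of labelled RNA from both, so the ratio does not carry the number of cells or the RNA per cell. Between 3.76% and 23.4% of the probes had a value on an array. The median deposited log2 ratio of an array ranged from -0.35 to 0.38. One array went against its label: the second array of sample C, which has the exposed RNA in Cy5 by its label. Across probes it correlated with the dye swaps as deposited (r from 0.36 to 0.42) and between -0.19 and 0.10 with the other arrays of its own orientation. Those other arrays correlated with each other at 0.06 to 0.48, and the dye swaps with each other at 0.38 to 0.45. Between those other arrays and the dye swaps as deposited r was -0.15 to 0.13, so no clear reversal was seen there either. For each of the 4 genes the mean is therefore given with the second array of sample C, without it and with its sign turned. Of 16 keratinocyte markers, 13 had a value and 6 had one on at least 6 arrays, whereas 5 of 24 markers of leukocytes, fibroblasts, melanocytes and endothelial cells had a value, on at most 2 arrays. A ratio carries no level, so this says only where a signal was recorded.

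By the sign of their mean log2 ratios, and by that alone, the 4 genes fell into 2 pairs. The log2 ratios of IL1B and NFKBIA were below 0 in both dye orientations on average and in 3 of 3 biological samples, at -0.40 ± 0.30 and -0.39 ± 0.19 (SD, n = 3). Of the 570 probes measured in both orientations of every sample, 268 were below 0 in both orientations on average. In 3 of 3 biological samples 187 of the 570 were below 0, so neither trait is particular to these genes. The log2 ratios of IL8 and TNFAIP3 were 0.09 ± 0.14 and 0.13 ± 0.17 (SD, n = 3). With the labelled directions their sign on most arrays went with the dye and not with the exposure. Each of these means first averages, within a biological sample, the arrays of the unswapped orientation and then adds the turned dye swap with equal weight, which balances the dyes. As the genes were chosen with these ratios known, the values are a description and no test result is read for any of the 4.

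**Figure D1:**
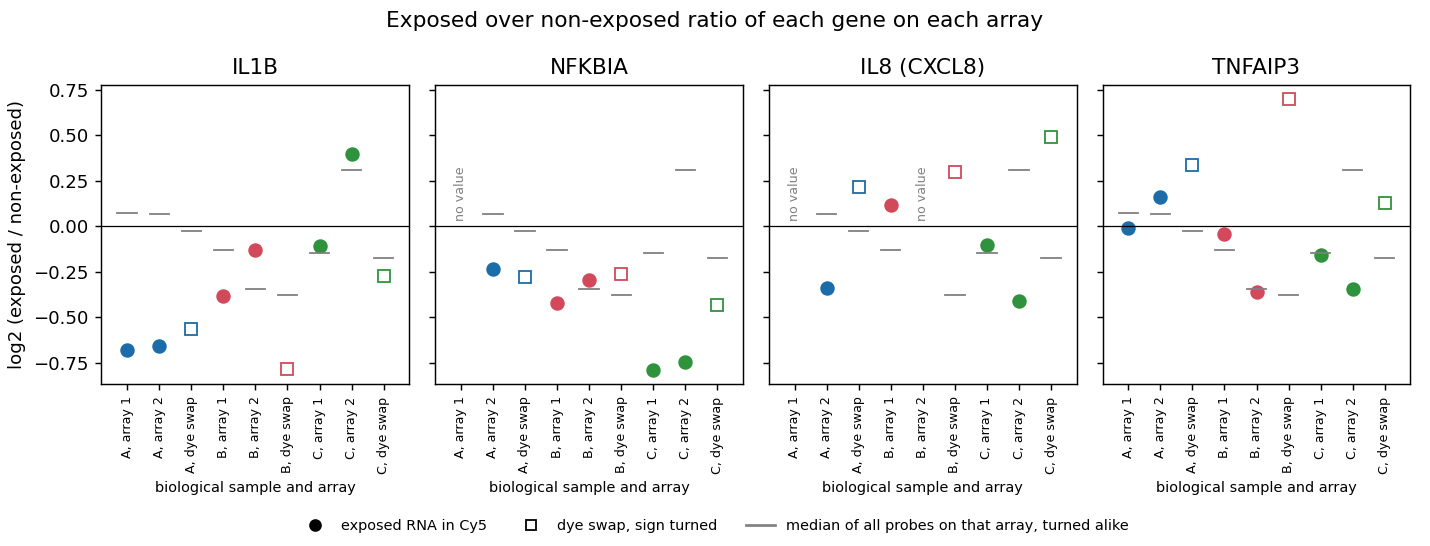
Log2 ratio of exposed over non-exposed cells (y axis) for IL1B, NFKBIA, IL8 and TNFAIP3 on each array (x axis), with arrays of samples A, B and C in blue, red and green, filled circles for exposed RNA in Cy5, open squares for turned dye swaps, and grey bars for the median of all probes on that array. With the labelled directions all 8 NFKBIA values lie below 0, IL1B lies above 0 only on array 2 of sample C, and the squares of IL8 and TNFAIP3 all lie above 0.

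IL1B, the cytokine that starts and sustains inflammatory signalling in skin, had a value on all 9 arrays. In sample A its log2 ratios were -0.68 and -0.66 with the exposed RNA in Cy5, then -0.57 on the dye swap. In sample B they were -0.38 and -0.13 with the exposed RNA in Cy5, then -0.78 on the dye swap. In sample C they were -0.11 and 0.39 with the exposed RNA in Cy5, then -0.27 on the dye swap. IL1B was thus below 0 on 8 of 9 arrays, and the exception was the array that went against its label. Of the 570 probes measured in both orientations of every sample, 79 were below 0 on all or all but 1 of their arrays. The arrays of sample A lay close together and those of samples B and C were spread over a wider range.

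Balanced for dye, the IL1B log2 ratio was -0.62 in sample A, -0.52 in sample B and -0.07 in sample C, a mean of -0.40 or 0.757 times the non-exposed level. The order of the samples was thus A, B and C from lowest to highest, with sample C next to 0. Without the second array of sample C the mean was -0.44, and with that array turned it was -0.47. Over the 2 samples other than C it was -0.57. When each array was first centred on its own median, 6 of 9 arrays were below 0 and the samples gave -0.64, -0.21 and -0.02, a mean of -0.29 ± 0.32 (SD, n = 3). Sample C was again the nearest to 0 and sample A the farthest below it.

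NFKBIA, the IkB protein that carries NF-kB back out of the nucleus, had a value on 8 arrays and was missing on the first array of sample A. The remaining arrays of sample A gave log2 ratios of -0.23 with the exposed RNA in Cy5, then -0.28 on the dye swap. Those of sample B gave -0.42 and -0.29, and -0.26 on the dye swap. Those of sample C gave -0.79 and -0.74, with -0.43 on the dye swap. With the labelled directions every value was below 0, in both orientations, and sample C was the lowest in each of them. The second array of sample C gave nearly the same NFKBIA ratio as the first, unlike for IL1B. With that array turned, 7 of 8 NFKBIA values were below 0 and sample C, at -0.02 with the exposed RNA in Cy5, was no longer the lowest in that orientation.

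A ratio below 0 on every array with a value was found for 12 of the 570 probes measured in both orientations of every sample, 2.11% of them, and for 0 probes above 0. NFKBIA was 1 of the 12. With the second array of sample C turned there were 23 such probes, NFKBIA no longer among them and IL1B below 0 on 9 of 9 arrays. Balanced for dye and as labelled, the NFKBIA log2 ratio was -0.26 in sample A, -0.31 in sample B and -0.60 in sample C. Its mean was -0.39 or 0.764 times the non-exposed level. As labelled, sample C was thus the lowest for NFKBIA and the highest for IL1B. Without the second array of sample C the mean was again -0.39, with -0.61 in sample C. With that array turned sample C gave -0.23, the highest of the samples, and the mean was -0.26 ± 0.04 (SD, n = 3). After centring of each array, 6 of 8 arrays were below 0, and the samples gave -0.28, 0.00 and -0.55, a mean of -0.28 ± 0.27 (SD, n = 3). In sample B the NFKBIA ratio was thus that of the middle probe, since the array medians of sample B, turned alike, were -0.13, -0.35 and -0.38.

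IL8, the chemokine that draws neutrophils into the epidermis, had a value on 7 arrays and was missing on the first array of sample A and the second of sample B. With the exposed RNA in Cy5 its log2 ratios were -0.34 in sample A, 0.12 in sample B, and -0.10 and -0.41 in sample C. On the turned dye swaps they were 0.21, 0.30 and 0.49 in samples A, B and C. With the labelled directions all dye swaps were thus above 0, and 3 of 4 arrays of the other orientation were below it. With the second array of sample C turned, 2 of 7 values were below 0. The mean of sample C with the exposed RNA in Cy5 was then 0.155, in place of -0.256. As deposited, Cy5 over Cy3 was below 0 on 6 of 7 arrays, whichever RNA was in Cy5.

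Balanced for dye, the IL8 log2 ratio was -0.06 in sample A, 0.21 in sample B and 0.12 in sample C, a mean of 0.09 or 1.06 times the non-exposed level. The mean was smaller than the SD of 0.14, so the samples did not place IL8 on either side of 0. Without the second array of sample C the mean was 0.11, with it turned 0.16, without sample A it was 0.16 and without sample B 0.03. The dye component, the log2 of Cy5 over Cy3 that remains when the exposure is balanced out, was -0.25 ± 0.14 (SD, n = 3), below that of all but 23 of the 570 probes. In size this component was above the exposure ratio of 0.09. It was computed with the second array of sample C as labelled.

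TNFAIP3, the A20 enzyme that strips and adds ubiquitin chains on signalling adaptors, had a value on all 9 arrays. With the exposed RNA in Cy5 its log2 ratios were -0.01 and 0.16 in sample A, -0.04 and -0.36 in sample B, and -0.16 and -0.35 in sample C. On the turned dye swaps they were 0.33, 0.70 and 0.13 in samples A, B and C. With the labelled directions the orientations overlapped only through 1 array, the second of sample A. With the second array of sample C turned, 4 of 9 values were below 0. The mean of sample C with the exposed RNA in Cy5 was then 0.094, in place of -0.251. As deposited, Cy5 over Cy3 was below 0 on 8 of 9 arrays.

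Balanced for dye, the TNFAIP3 log2 ratio was 0.20 in sample A, 0.25 in sample B and -0.06 in sample C, a mean of 0.13 or 1.09 times the non-exposed level. As labelled, the mean was again smaller than the SD of 0.17. Without the second array of sample C it was 0.15 ± 0.14, and with that array turned 0.19 ± 0.07 (SD, n = 3). With it turned, sample C was at 0.11, so that every sample was above 0 and the mean was above the SD. Leaving out sample B gave a mean of 0.07, and leaving out sample C gave 0.23. The dye component, again with the labelled directions, was -0.26 ± 0.17 (SD, n = 3), below that of all but 19 of the 570 probes. The highest single value, 0.70 on the dye swap of sample B, came from the array whose turned median of -0.38 was the lowest, and centring that array raised it to 1.08.

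**Figure D2:**
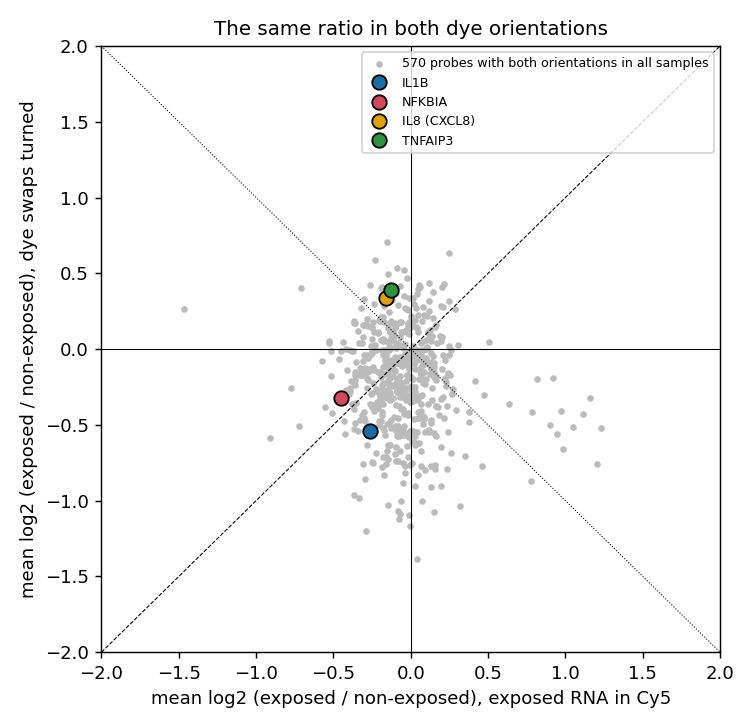
Mean log2 ratio of exposed over non-exposed cells with exposed RNA in Cy5 (x axis) and in turned dye swaps (y axis), each a mean over 3 biological samples, for 570 probes in grey and the 4 genes in colour; the dashed line marks equal values and the dotted line opposite ones. With the labelled directions NFKBIA (-0.45 and -0.32) and IL1B (-0.26 and -0.54) lie in the lower left, and IL8 (-0.16 and 0.33) and TNFAIP3 (-0.13 and 0.39) in the upper left.

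Set by orientation, the mean log2 ratio of NFKBIA was -0.45 where exposed cells were in Cy5 and -0.32 for the dye swaps, and that of IL1B was -0.26 and -0.54. For IL8 the means were -0.16 and 0.33, and for TNFAIP3 they were -0.13 and 0.39. All these means take the second array of sample C as labelled. Of the 4 genes, 2 thus had the same sign in both orientations. Over the 570 probes this was so for 56.3%, and nothing about the 4 genes is read from the share.

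**Figure D3:**
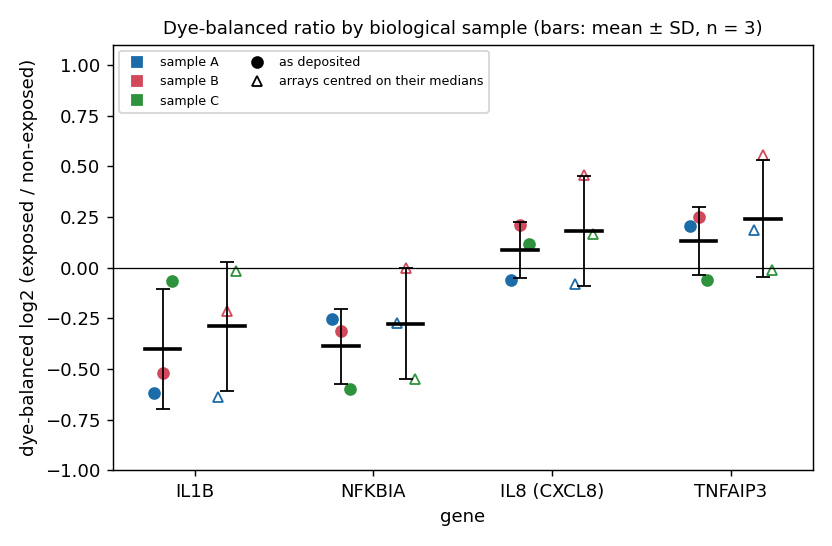
Dye-balanced log2 ratio of exposed over non-exposed cells (y axis) for each gene (x axis) in samples A, B and C, as deposited (filled circles) and with each array centred on its median (open triangles); thick lines are means and error bars SD over 3 biological samples. The means of IL1B and NFKBIA are -0.40 and -0.39 as deposited and -0.29 and -0.28 after centring, and those of IL8 and TNFAIP3 rise from 0.09 and 0.13 to 0.18 and 0.24.

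Most probes lay below 0, so the 4 genes were also placed among the 570. The median dye-balanced log2 ratio of these probes was -0.12, and 75.3% of them were below 0. IL1B was 47th and NFKBIA 52nd from the lowest, with 8.07% and 8.95% of the probes below them. IL8 and TNFAIP3 were in the upper part of the same range, with 85.8% and 90.5% of the probes below them. Without the second array of sample C, 7.12% of 562 probes were below IL1B and 10.5% below NFKBIA, and with it turned 6.67% and 23.5% of the 570 were, so that the place of NFKBIA depended on the direction of that array. Measured from the median probe, the log2 ratios were -0.28 for IL1B, -0.27 for NFKBIA, 0.21 for IL8 and 0.25 for TNFAIP3. These positions are a description, as the ratios were known when the genes were chosen.

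Across the 570 probes, limma with Benjamini-Hochberg adjustment called 22 (3.86%) at an adjusted p under 0.05, all lower after exposure. The 4 genes were among the 570 probes and 0 of them were called. An unadjusted p under 0.05 was found for 116 of the 570 probes. Leaving out 1 biological sample lowered the 22 calls to 10 (without A), 3 (without B) or 10 (without C), and leaving out the second array of sample C alone raised them to 38, and turning it to 48. With each array centred on its median there were 13 lower and 4 higher calls. When each probe was judged by its own spread, 0 of the 570 were called, and 32 had an unadjusted p under 0.05. As the same ratios led to the choice of the genes, nothing is read from these counts.

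The genes that moved most like each of the 4 were taken as those with the smallest root mean square difference in log2 ratio over at least 6 shared arrays. For IL1B these were MRPL15, a protein of the mitochondrial ribosome (0.19 over 9 arrays), NANS, a sialic acid synthase (0.23 over 6), and SFN, the keratinocyte 14-3-3 protein stratifin (0.24 over 8). The median difference over the 1143 probes compared with IL1B was 0.57. MRPL15 had the sign of IL1B on 9 of 9 arrays, the second array of sample C included, and a dye-balanced mean of -0.40.

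For NFKBIA the near genes included TNKS1BP1, which binds tankyrase (0.20 over 7 arrays), and H2AFX, a histone variant (0.23 over 7). For IL8 they were ATP5L, a subunit of ATP synthase (0.13 over 6), RPL4, a ribosomal protein (0.16 over 6), and MCTS1, a translation factor (0.17 over 7). For TNFAIP3 they were TPBG, a membrane glycoprotein (0.13 over 6), C7orf36 (0.16 over 6) and PRDX6, a peroxiredoxin (0.16 over 6). None of these genes was on the NF-kB lists described next. The arrays of 1 sample share their RNA, so these differences rest on 3 biological samples.

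Among the 4 genes themselves, IL8 and TNFAIP3 were nearest to each other, with a root mean square difference of 0.29 over 7 shared arrays. IL1B and NFKBIA differed by 0.54 over 8 shared arrays and had the same sign on 7 of them. NFKBIA was almost as near to TNFAIP3 (0.56 over 8 arrays) and to IL8 (0.57 over 7). The median difference over all probes compared was 0.57 for IL1B and 0.52 for NFKBIA, so these 2 genes were not alike array by array. IL1B and TNFAIP3 were farthest apart at 0.75 over 9 arrays. With the second array of sample C included as labelled, the pair with both ratios below 0 was thus less alike than the pair that followed the dye. On that array IL1B was at 0.39 and NFKBIA at -0.74, and the differences without it are not given here.

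The other genes of the pathway were mostly without a value. Of 121 listed genes in 9 groups, 107 had a probe named in the annotation, 60 had a value on any array and 44 had values from 2 or more biological samples. Limma without the filter covered 5688 probes and called 0 of them (0%) at an adjusted p under 0.05, with 216 at an unadjusted p under 0.05. Accordingly 0 of the 44 pathway genes were called, and 0 had an unadjusted p under 0.05. With each probe on its own spread limma called 0 of the 44 as well, and 1 had an unadjusted p under 0.05. The 44 genes had a median log2 ratio of -0.13, beside -0.09 over all 5688 probes. Of the 44, 30 were below 0 (over all probes 65.8% were) and 21 had no value on a dye swap, so that dye and exposure cannot be told apart for them. A dye swap value did not always balance the dyes. NFKB1, REL, CHUK, TAX1BP1, PLAU and BIRC2 had only the dye swap in sample B and only the other orientation in samples A and C. For these genes the dye cannot be told apart from the sample. Of the 18 genes named below, 11 had a mean that turned or moved by over 1.5 times when 1 biological sample was left out.

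**Figure D4:**
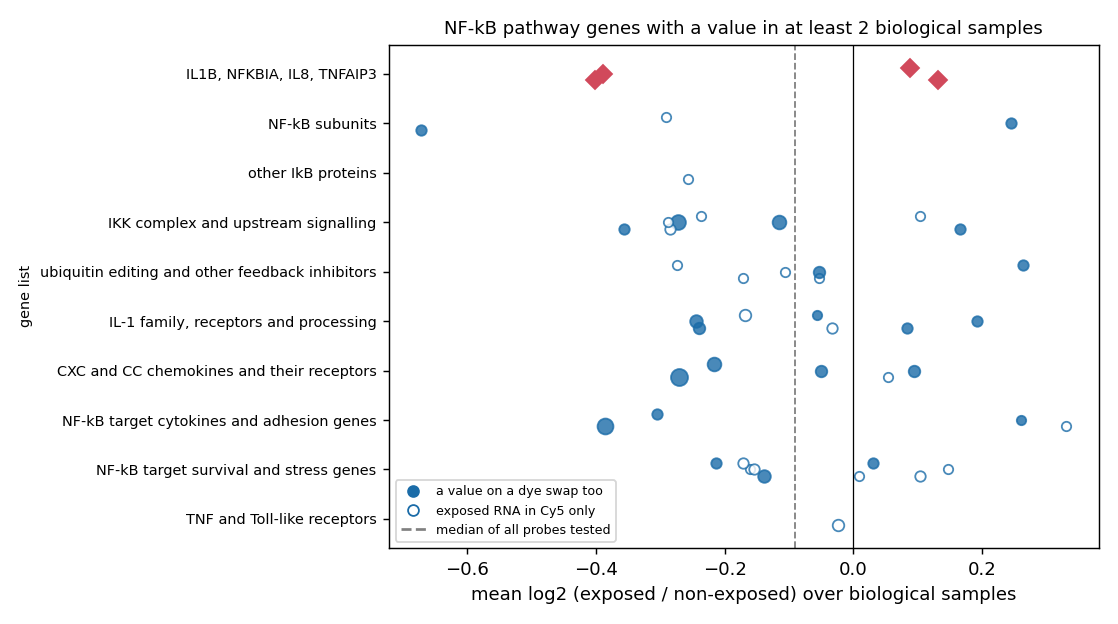
Mean log2 ratio of exposed over non-exposed cells (x axis) for the 44 pathway genes measured in 2 or more biological samples, by group (y axis), with larger circles for more arrays, filled circles for genes with a dye swap value and open circles for genes without one; red diamonds are IL1B, NFKBIA, IL8 and TNFAIP3 and the dashed line is the median of 5688 probes. The largest circles, CSF3 at -0.39 and CCL2 at -0.27, lie below 0.

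CSF3 and CCL2 were the only listed genes besides the 4 that were measured in both orientations of every sample. CSF3, the granulocyte colony-stimulating factor, had log2 ratios from -0.77 to 0.39 over 8 arrays, of which 7 were below 0, with -0.31, -0.24 and -0.61 in samples A, B and C and a mean of -0.39 ± 0.20 (SD, n = 3). Its single value above 0 was on the first array of sample B, and its lowest was on the second array of sample C, without which the mean was -0.36 (-0.26 with that array turned). CCL2, which attracts monocytes, ranged from -0.56 to 0.26 over 9 arrays, of which 7 were below 0, with a mean of -0.27 ± 0.14 (SD, n = 3). On the dye swaps the mean of CCL2 was -0.46, but with the exposed RNA in Cy5 it was -0.08, and its other probe, with 2 arrays, gave 0.10. Neither passed limma's threshold over the 570 probes, with Benjamini-Hochberg adjusted p of 0.12 for CSF3 and 0.30 for CCL2.

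Among the other chemokines, CCL5 had 6 values and a mean log2 ratio of -0.22 ± 0.32, and CCL20 had 4 values and a mean of 0.09 ± 0.15 (SD, n = 3). The second probe of CCL5, with 4 values, gave -0.42. CCL20, a kB-driven chemokine of keratinocytes, was above 0 on its 3 dye swaps and at -0.20 on its only array with exposed RNA in Cy5, the order that IL8 showed. In the interleukin-1 group, 7 of 18 genes were measured in 2 or more samples, with a median of -0.06. IL1A, the interleukin-1 that keratinocytes store, was below 0 on 4 of 4 arrays (-0.28 to -0.06, mean -0.17 ± 0.10, SD, n = 3), all with the exposed RNA in Cy5. The lowest of these was on the second array of sample C. Its mean was -0.14 without that array and -0.07 with it turned. The receptor IL1R1 had a mean of -0.24 ± 0.31 and CASP4, an inflammatory caspase, -0.24 ± 0.39 (SD, n = 3), but without sample C the mean of IL1R1 was -0.07 and without sample B that of CASP4 was -0.03. None of these means was set apart from 0 by limma's adjusted test.

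Of the NF-kB subunits, NFKB1, the p105 precursor of p50, had log2 ratios of 0.01, -1.64 and -0.38 on its 3 arrays, where the lowest was its only dye swap. REL was above 0 on its 3 arrays with a mean of 0.25 ± 0.16 (SD, n = 3). Of the kinases and adaptors above IkB, 8 of 21 were measured in 2 or more samples and their median was -0.25. IRAK1, the kinase next to the interleukin-1 receptor, had a mean of -0.27 ± 0.15 over 7 arrays. The dye swaps of samples A and B gave -0.45 and -0.67. Values with the exposed RNA in Cy5 ran from -0.38 to 0.29, and the -0.38 was the only value of sample C. UBE2N, the enzyme that builds the ubiquitin chains of this pathway, had -0.12 ± 0.16 over 6 arrays, and CHUK, an IKK kinase, 0.17 ± 0.40 over 3 (SD, n = 3). For UBE2N and CHUK the spread over samples was larger than the mean.

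Beside NFKBIA and TNFAIP3, the inhibitors with a value in all 3 samples were TAX1BP1, the adaptor that brings A20 to its substrates, and OTUD7B, an A20-like deubiquitinase. TAX1BP1 was above 0 on its 3 arrays (0.13 to 0.39, mean 0.26 ± 0.13, SD, n = 3), of which the lowest, its only value in sample C, was from the second array of that sample. Without that array the mean was 0.33 over 2 samples, and with it turned it was 0.18 with 1 value below 0. OTUD7B had a mean of -0.05 ± 0.09 over 4 arrays (SD, n = 3). The group of 12 inhibitors had 6 genes measured in 2 or more samples and a median of -0.08. Of the remaining targets, PLAU, the urokinase of migrating keratinocytes, was below 0 on its 3 arrays with a mean of -0.31 ± 0.20, and GADD45A, a stress-induced growth arrest gene, with a mean of -0.15 ± 0.06 (SD, n = 3). All 3 GADD45A values had the exposed RNA in Cy5, so dye and exposure cannot be told apart. Of the PLAU values only that of sample B was from a dye swap. BIRC2, an inhibitor of apoptosis, had 0.03 ± 0.39, and ATF3, a stress-induced transcription factor, -0.14 ± 0.24 (SD, n = 3). Without the second array of sample C the mean of ATF3 was -0.07. The survival and stress group had a median of -0.14 over 9 genes.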

How the data were processed

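RNA of exposed and non-exposed HaCaT cells was amplified and hybridized on 2-colour arrays. The authors normalized the scans in ScanArray Express by a method not given in the sources used here, and deposited for every array the probes' log2 ratios (Cy5 over Cy3), a scale read here from the values. Which step left probes without a value is not stated either, nor are intensities, backgrounds and slides in the table used, so signal over background is unknown. Array medians were kept as deposited. Dye swaps were turned by their labels. The biological sample was the replicate (n = 3), with its arrays averaged within each orientation and then between orientations. Limma 3.58.1 in R 4.3.3 (intercept, eBayes, two-sided, Benjamini-Hochberg, threshold 0.05) was run on the 570 probes with both orientations in every sample and on the 5688 measured in 2 or more samples. Its standard error was 0.15 for all 570 probes, since it gave them 1 common spread. The script was tested on simulated data. The study's SAM test was not run.

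The 4 genes, the gene lists and the tests were chosen with earlier results of these data known. Named pathway genes were, per list, up to 3 with a value in all 3 samples and on the most arrays; genes alike in pattern were the 3 symbols nearest to each of the 4. One of these is not reported here. Where a pathway gene had several probes, the probe with the most values was used. The promoter motifs were chosen after the sequences had been seen. Probe symbols came from the platform annotation, in which 17397 of the 30968 probes carried 1. Alternatives were array centring, quantile normalization, each orientation alone, a plain mean, dye swaps left unturned, leaving out technical arrays or a biological sample, other filters and other models of the spread; leaving out or turning the second array of sample C, and all alternatives for the pathway genes, were added after seeing the data. Each of the 4 genes had a single probe, so no comparison of probes could be made for them.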

Additional observations from a re-analysis of the deposited data

How the results depend on the processing

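IL1B kept its direction in 12 of 13 alternatives, NFKBIA in 13 of 13, and IL8 and TNFAIP3 in 11 of 13 each. With only the arrays labelled as having exposed RNA in Cy5, the mean log2 ratio was -0.16 for IL8 and -0.13 for TNFAIP3. With the dye swaps alone it was 0.33 and 0.39. Dye swaps left as deposited gave 0.14 for IL1B, -0.25 for IL8, -0.064 for NFKBIA and -0.26 for TNFAIP3, values that no longer measure the exposure. That setting is among the 13, so the sign kept there by NFKBIA and lost by the other genes says nothing about the exposure. The other alternatives moved the 4 means by less than 1 SD. Without 1 biological sample, IL1B ranged from -0.57 to -0.29, NFKBIA from -0.46 to -0.28, IL8 from 0.03 to 0.16 and TNFAIP3 from 0.07 to 0.23.

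The 22 calls among 570 probes became 10 (9 lower) with quantile normalization, 10 with the dye swaps alone, 11 (8 lower) with a plain mean of the arrays, 7 of 293 probes without the first array of each sample and 32 of 460 (29 lower) without the second. They became 33, all higher, with the dye swaps left as deposited, 38 without the second array of sample C, 48 (47 lower) with that array turned, 14 among the 247 probes with 9 values, and 1 in a fit of all 9 arrays with dye as a term and biological sample as random block. They became 0 among the 5688 probes of the wider filter, 0 with trend and robust options, and 0 when a probe's own spread was used. Without 1 biological sample they ranged from 3 to 10. The arrays with exposed RNA in Cy5 alone gave 5 lower and 14 higher calls, and centring gave 13 lower and 4 higher. The cause was not tested for any of these. The count of pathway genes called was 0 in all 8 alternatives. Both orientations were combined within each biological sample before every dye-balanced fit. The small number of arrays, from 3 biological samples, limits the precision, and signal over background is unknown.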
